A study of Mus musculus with 32 samples.

Results

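Collagen genes were taken as the records that carry a single gene symbol of the form Col, number, a, number. The deposited tables held 42 such symbols among 23236 gene symbols with a record in any library. They comprised 11 fibrillar genes, 6 of the basement membrane network, 6 of beaded filaments, 3 of short-chain networks, 9 of fibril-associated collagens, 4 transmembrane collagens, 2 multiplexins and Col28a1. Col7a1, the anchoring fibril collagen, was held in every library in a record merged with Mir711 (0.304 to 11.02 FPKM as deposited) and is therefore not a member, and Col26a1 had no record of its own. Col27a1 in both top intestine libraries at P1, and Col20a1 in wild-type bottom intestine at P10, were likewise held in merged records, so that each fit using those libraries left out that gene.

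Total RNA depleted of ribosomal RNA was sequenced from gut organs of percc1-/- mice and wild-type controls on a mixed 129SvEv and C57BL/6 background. The percc1-/- line, bred among siblings, carries a loxP site where 1512 bp of chromosome 17 were removed, per the labels. There were 32 libraries in 16 pairs, each pair being a percc1-/- and a wild-type sample matched for region and stage. For small intestine these were the top part at postnatal days P1, P5 and P15 and the bottom part at P1, P5, P10 and P20, 7 pairs in all. For stomach they were 5 pairs, with the organ entire at P1 and P5 but only its bottom part at P10, P15 and P20. Large bowel had 3 pairs (P1 colon together with rectum, and at P5 each of these alone), and E14.5 embryos gave 1 pair of whole gut. Each combination of region, stage and genotype is 1 library, and nothing in the labels says which libraries come from separate animals, so p-values measure the spread between libraries of different region, stage or genotype, which may be partly technical.

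Collagens are matrix proteins of 3 chains wound into a triple helix, which needs glycine, the smallest residue, wherever a chain turns towards the helix axis. Fibrillar collagens such as types I, III and V make the tension-bearing fibrils of the submucosa and muscle coat of the gut, and fibril-associated collagens decorate their surface. Type IV collagen makes the sheet-like network of basement membranes under epithelium and around muscle cells and vessels, type VI makes beaded filaments between fibrils and basement membranes, and transmembrane collagens such as type XVII anchor cells to the matrix. In the gut wall most collagen is made by fibroblasts and smooth muscle cells.

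The repeat that defines the family can be read in the gene sequences. Below is, for 9 members, the first coding exon of 54 bases that starts on a glycine codon inside the longest uninterrupted run of glycine repeats, read from the mm9 genome with GENCODE models and written 5′ to 3′ on the gene's strand. Capitals mark the glycine codons, 6 of 18 codons in each exon.
Col1a1, exon 8, chr11:94801218-94801271, plus strand: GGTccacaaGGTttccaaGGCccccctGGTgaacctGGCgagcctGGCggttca
Col1a2, exon 8, chr6:4465481-4465534, plus strand: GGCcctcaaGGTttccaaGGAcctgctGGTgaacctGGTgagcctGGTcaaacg
Col2a1, exon 10, chr15:97826920-97826973, minus strand: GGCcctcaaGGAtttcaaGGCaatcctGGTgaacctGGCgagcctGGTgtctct
Col3a1, exon 6, chr1:45382205-45382258, plus strand: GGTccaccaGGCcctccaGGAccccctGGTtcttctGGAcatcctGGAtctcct
Col5a1, exon 15, chr2:27820771-27820824, plus strand: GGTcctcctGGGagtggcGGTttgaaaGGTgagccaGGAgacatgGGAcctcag
Col5a2, exon 10, chr1:45479231-45479284, minus strand: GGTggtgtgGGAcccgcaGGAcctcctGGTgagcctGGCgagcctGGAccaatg
Col11a1, exon 15, chr3:113811199-113811252, plus strand: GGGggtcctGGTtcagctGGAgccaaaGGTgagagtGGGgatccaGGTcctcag
Col4a1, exon 7, chr8:11245211-11245264, minus strand: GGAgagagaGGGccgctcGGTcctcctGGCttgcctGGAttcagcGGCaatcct
Col6a1, exon 9, chr10:76182368-76182421, minus strand: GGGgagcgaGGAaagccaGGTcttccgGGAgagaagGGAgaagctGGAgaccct
The exons of Col1a1 and Col2a1 shared 43 of 54 bases, and those of Col1a1 and Col1a2 shared 42. The exon of Col4a1 shared 19 bases with that of Col11a1, the fewest among the 36 pairs of printed exons. The longest run held 216 to 344 glycine repeats in the 11 fibrillar genes and 39 to 66 in the 6 type IV genes, whose helix is interrupted. Inside these runs, 284 of 470 fibrillar coding exons were 54 bases long, and all 470 had a length that is a multiple of 9. The 3 short-chain network genes held runs of 60 or 61 repeats with no exon wholly inside them.

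Values are FPKM, fragments scaled to transcript length and to library size, rescaled here so that libraries are comparable (scaling factors 0.864 to 1.38, from 10023 genes). FPKM are scaled per length, but levels of different genes are set side by side below for named records alone. Records without a symbol lay inside the spans of members in unlike number. Their median per library was 0 for Col1a1, 3.5 for Col3a1 and 10 for Col27a1. Records with a gene symbol held 16.8 to 60.2 percent of the FPKM sum of a library. The tables give no counts, so the depth is unknown; the deposited bounds around an FPKM had a median half-width of at most 10 percent for 17 members and above 25 percent for 19. The deposited values had a narrow top: 0 to 4 named genes per library lay above 100 FPKM, Actb ranged from 37.5 to 73.3 FPKM and the 99th percentile from 25.3 to 47.1. Col3a1 lay at 0.753 to 1.68 times the 99th percentile of its library, so that the most abundant collagens sit where the scale is narrowest. How this range arose was not tested. No record carried the symbol Percc1, so the targeted gene could not be read by name as a check of the genotype labels.

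Fibrillar collagens I and III led the family in nearly every library. Col3a1, the chain of type III collagen, had 27.2 to 53.0 FPKM (median 42.0) and was the highest collagen in 24 of 32 libraries. Col1a1, the α1 chain of type I collagen, had 19.8 to 55.7 FPKM (median 38.7) and led in 6. Col1a2, its partner chain, had 19.1 to 47.6 (median 36.0). All 3 had their lowest value in percc1-/- bottom intestine at P1. Col5a1 and Col5a2, chains of type V collagen that nucleates fibrils, had medians of 22.4 and 21.3 FPKM, and Col27a1 had 8.49 over the 30 libraries with a record of its own. The other fibrillar members were low: Col5a3 had a median of 4.62, Col24a1 2.78, Col11a1 1.04, Col11a2 0.613 and Col2a1, the cartilage collagen, 0.00480, with 16 libraries listed at 0.

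Among basement membrane chains, the ubiquitous pair led and varied least. Col4a1 had 23.1 to 40.0 FPKM (median 32.8) and Col4a2 15.6 to 33.1 (median 25.9). Col4a5 and Col4a6, chains of a network made around smooth muscle and under some epithelia, had medians of 8.82 and 4.96. Col4a3 and Col4a4, chains best known from kidney glomeruli, had 0.585 and 0.428.

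Beaded filament genes split into a steady trio and a variable one. Col6a1, Col6a2 and Col6a3, the classical chains of type VI collagen, had medians of 29.3, 30.2 and 22.1 FPKM, and their lowest libraries still had 23.9, 23.5 and 13.96. The later-described chains Col6a4, Col6a5 and Col6a6, which lie side by side on chromosome 9 (mm9 105591747 to 105999114), had medians of 16.7, 7.29 and 0.947. Col6a5 ranged from 0.686 to 20.4 and Col6a4 from 6.64 to 24.5.

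Of the other classes, the multiplexins Col18a1, the source of endostatin, and Col15a1 had medians of 14.7 and 11.8 FPKM. The fibril-associated Col12a1, Col16a1 and Col14a1 had 13.98, 13.6 and 11.1, against 4.90 for Col20a1, 2.09 for Col9a2 and less than 1 for Col9a1, Col9a3, Col19a1 and Col22a1. The transmembrane members Col13a1, Col23a1, Col25a1 and Col17a1 had medians of 4.82, 4.73, 1.20 and 0.874, and the short-chain Col8a1, Col8a2 and Col10a1 had 4.23, 2.18 and 1.58. Col28a1, a von Willebrand-domain collagen found near nerves, had 1.20. In all, 23 of 42 members had at least 1 FPKM in each library that gave them a value, and 14 had at least 5. Summed over the 40 members with a value in all libraries, collagen FPKM lay between 324 and 596, the lowest in percc1-/- bottom intestine at P1 and the highest in wild-type stomach at P5.

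**Figure D1:**
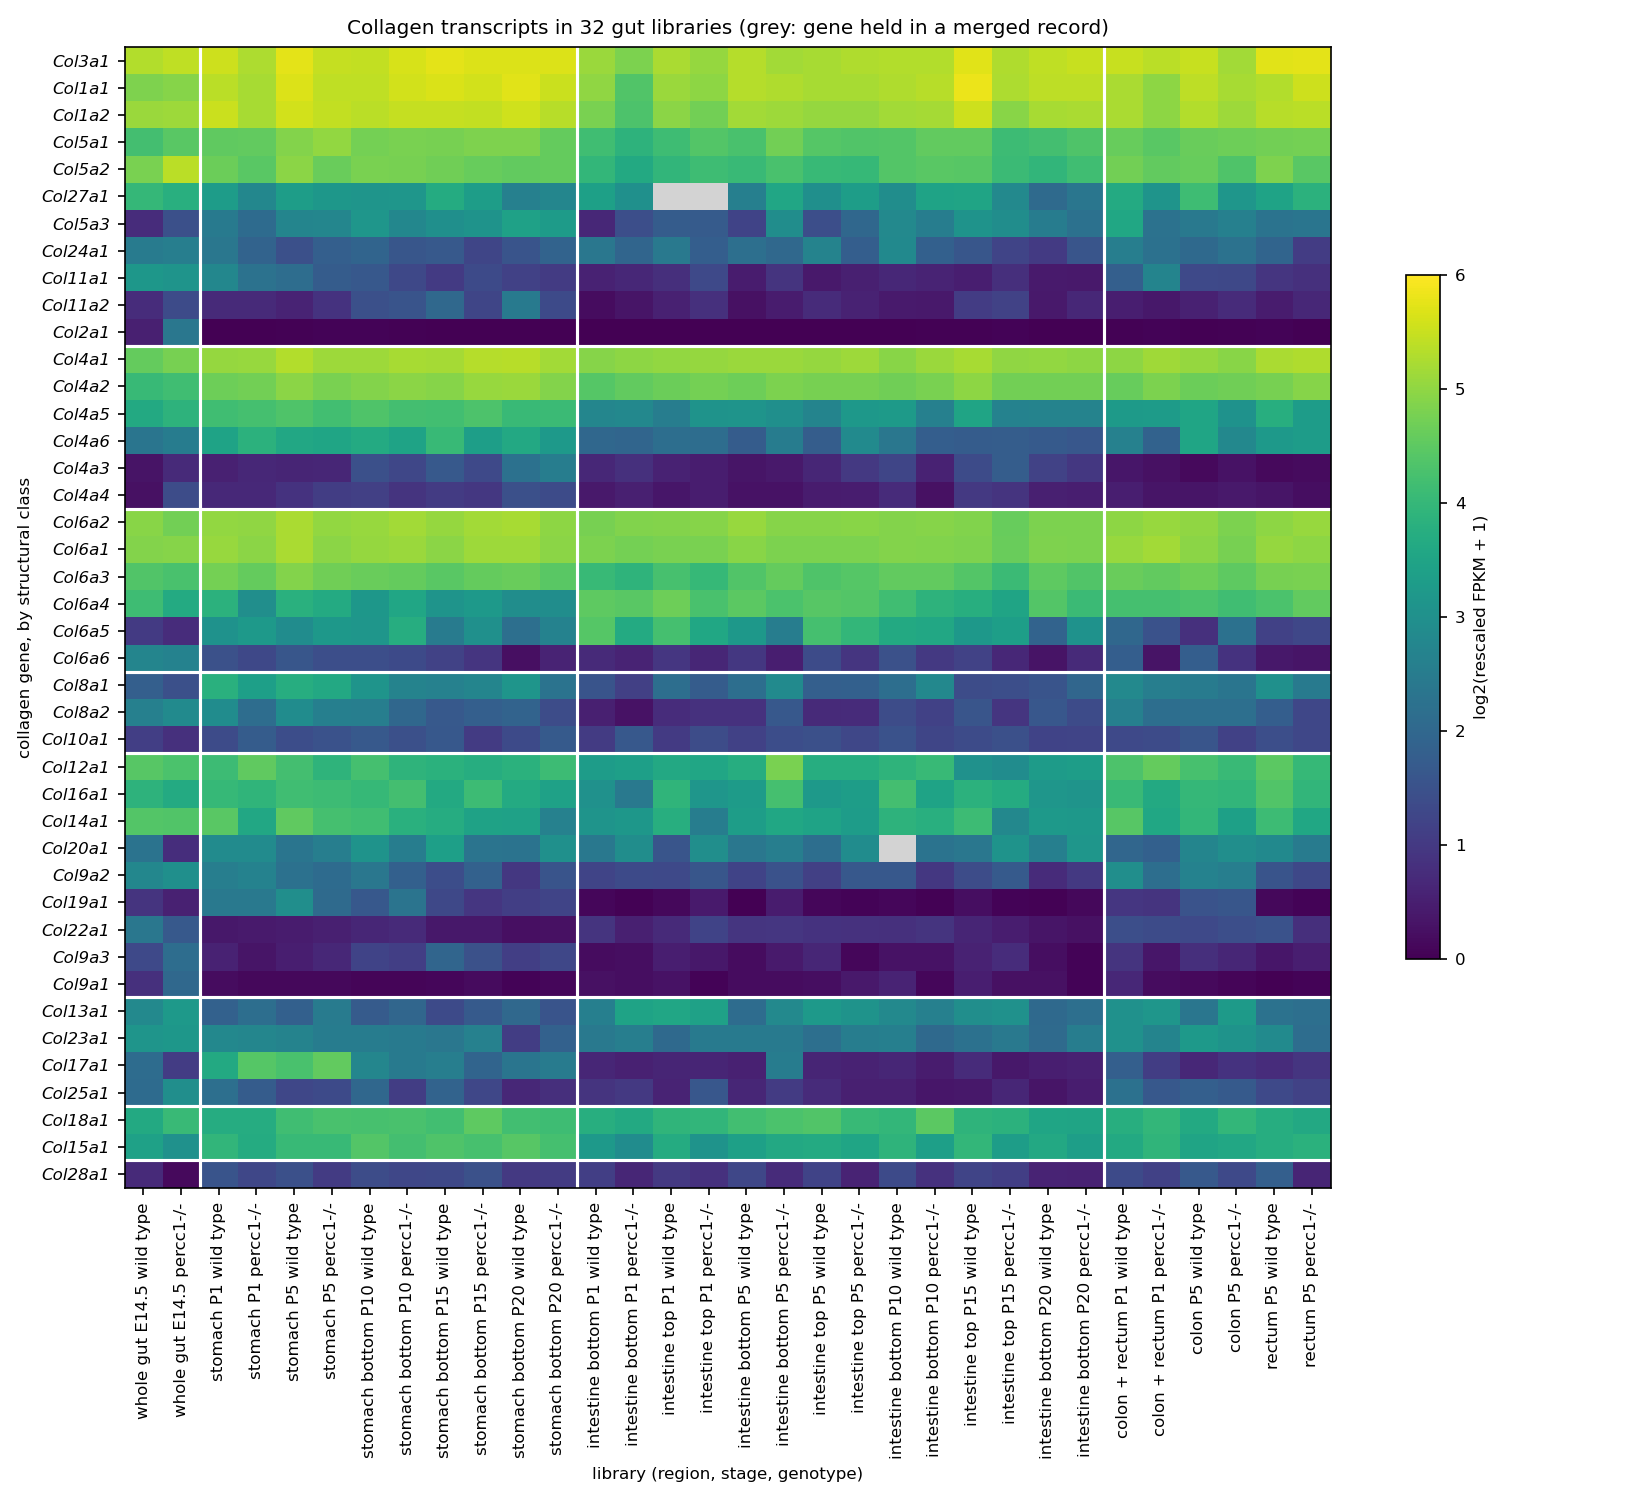
Each row is a collagen gene, grouped by structural class, each column a library ordered by organ and stage, and the colour is log2(rescaled FPKM + 1). Col3a1, Col1a1, Col1a2, Col4a1, Col6a1 and Col6a2 are bright throughout, Col17a1 and Col19a1 stand out in stomach, and Col6a5 is dim in large bowel.

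In named records, the main chains of types I, IV and VI kept steady ratios. These chains are among the most abundant, where the scale is narrowest. Records without a symbol are not in the ratios and were unlike in number between partners. Their median per library was 0 for Col1a1 and 1.5 for Col1a2, and 1 for Col6a1 and 5 for Col6a2. The ratio of Col1a1 to Col1a2 was 0.842 to 1.26 over 32 libraries (median 1.11), that of Col4a1 to Col4a2 was 1.17 to 1.56 (median 1.26), and that of Col6a1 to Col6a2 was 0.910 to 1.14 (median 0.970). Protein of type I collagen holds a different number of each chain, which these transcript levels do not show. Col4a1 and Col4a2 lie head to head on chromosome 8 with overlapping 5′ ends, Col4a4 and Col4a3 lie head to head on chromosome 1 with 71 bp between them, and Col4a6 and Col4a5 do so on chromosome X with 1308 bp between them. Across libraries the log2 levels of these pairs had Pearson r of 0.93, 0.77 and 0.85 (n = 32 libraries, which share stages and regions; description only). The ratio of Col4a5 to Col4a6 ran from 0.986 to 4.35 and that of Col4a3 to Col4a4 from 0.391 to 3.08. Col6a4 and Col6a5, neighbours on the same strand 28810 bp apart, had a ratio of 0.800 to 24.4 and a Pearson r of 0.02. Pairs that are not head to head also had high values. The Pearson r was 0.87 for Col6a2 and Col6a1, same-strand neighbours 85161 bp apart, and 0.89 for Col1a1 and Col1a2, on chromosomes 11 and 6. The part of gene arrangement in these values was not tested.

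**Figure D2:**
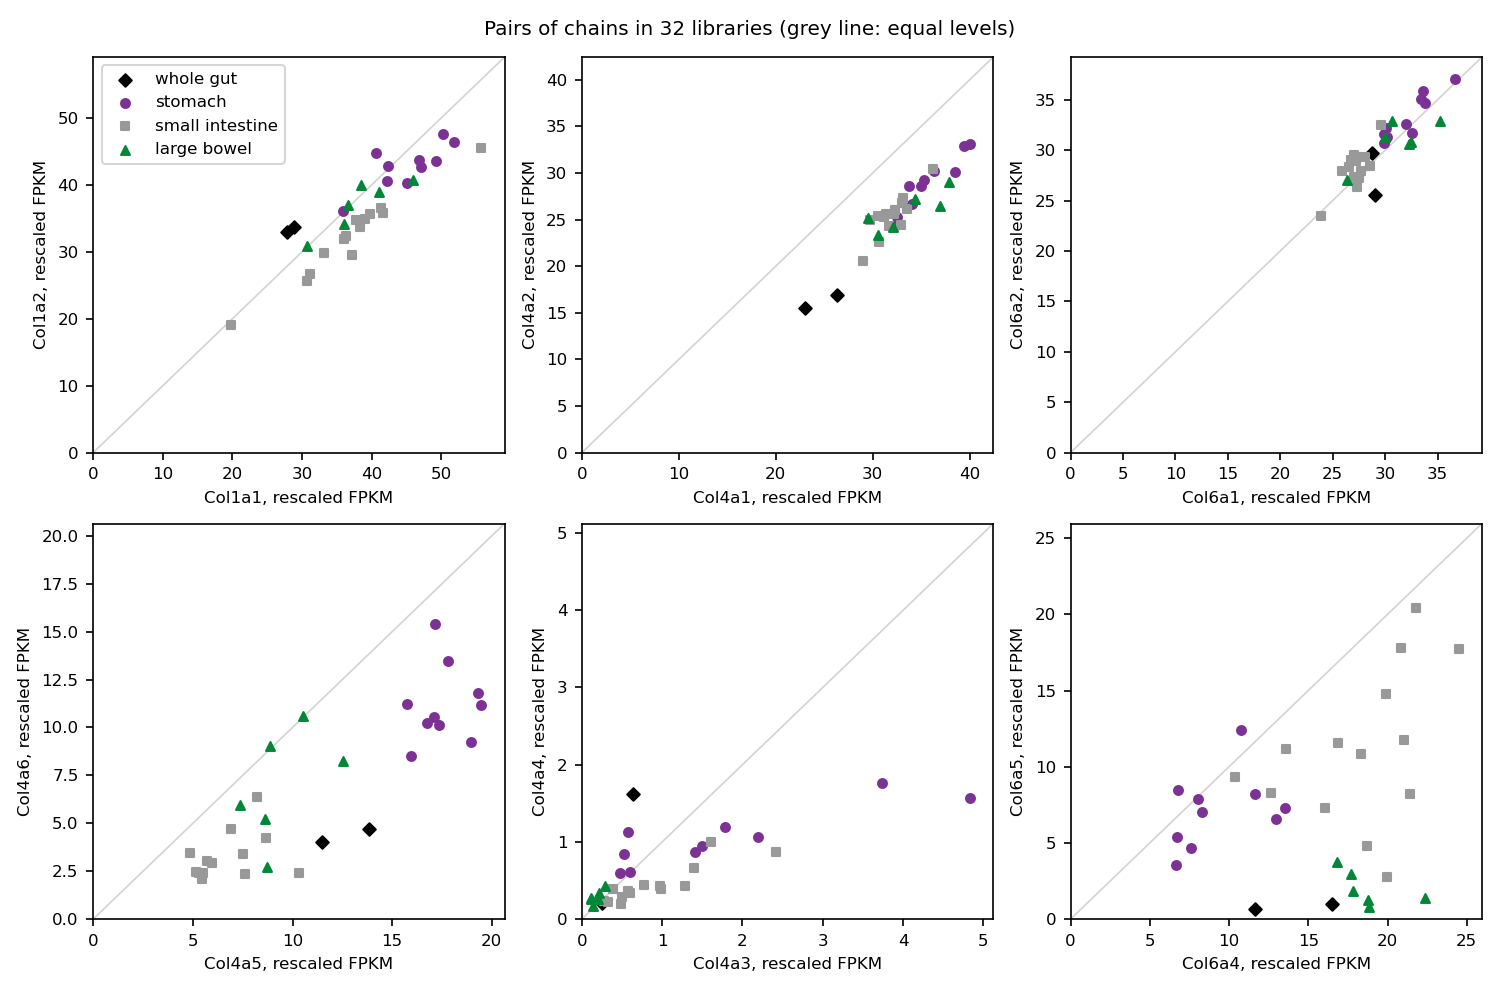
Each panel plots 1 chain against another in rescaled FPKM, 1 point per library, with the symbol showing the organ and the grey line equal levels. Col1a1 with Col1a2, Col4a1 with Col4a2 and Col6a1 with Col6a2 lie along a line, whereas Col6a5 is near the bottom in all 6 large bowel libraries although Col6a4 is 16.8 to 22.4 FPKM there.

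Stomach was compared with small intestine at P1 and P5, where the whole stomach was taken, with stage and genotype as covariates (4 stomach and 8 small intestine libraries, large bowel in the same fit). Of 34 tested members, 23 were higher in stomach, against 23.8 percent of 13171 genes, and 2 were lower, against 19.8 percent. The median difference was 0.48 on the log2 scale over the members and 0.03 over all genes. Calls are an adjusted p (limma, Benjamini-Hochberg over all genes tested) under 0.05. Differences are of log2(FPKM + 1), which understates the change of low genes. Of the 8 members not tested, Col27a1 was held in a merged record and the other 7 averaged under 1 FPKM. Without 3 libraries with raised gastric or squamous markers (percc1-/- bottom intestine at P5, top intestine at P1 and colon at P5), Col6a6 was no longer called in stomach (0.62, adjusted p = 0.086), nor, in the comparison of large bowel below, were Col23a1 (0.44, adjusted p = 0.054) and Col18a1 (-0.26, adjusted p = 0.12). That refit kept wild-type top intestine at P1 and P5, where gastric markers summed to 59.2 and 44.6. The omitted bottom intestine library had 47.7.

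The largest stomach difference was Col17a1, the collagen of hemidesmosomes, by which basal cells of stratified epithelium hold on to their basement membrane. It had 11.5 and 20.4 FPKM in wild-type and percc1-/- stomach at P1 and 18.5 and 22.5 at P5. In small intestine it had 0.473 to 4.71 (median 0.527), a difference of 3.39 ± 0.32 (SE, limma adjusted p = 5.4e-07), and in large bowel 0.596 to 2.51 (median 0.874). Stomach did not overlap the other organs. The one high intestinal value was percc1-/- bottom intestine at P5. Markers of squamous epithelium (Krt4, Lor and Trp63, the 3 of 6 listed with a value in all libraries) moved with Col17a1: their summed level was 79.2 to 96.3 in the 4 stomach libraries, 45.4 in that intestinal library and 0.540 to 4.40 in the other 7. The part of squamous tissue in these values was not tested.

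Basement membrane chains separated into pairs. Col4a5 had 16.7 and 17.8 FPKM in wild-type and percc1-/- stomach at P1 and 19.5 and 17.1 at P5, against 4.86 to 8.19 (median 6.43) in small intestine, with no overlap (1.33 ± 0.13, limma adjusted p = 5.7e-07). Its partner Col4a6 had 10.2 to 13.5 against 2.35 to 6.36 (1.48 ± 0.24, limma adjusted p = 0.00013). The pair Col4a1 and Col4a2 differed by 0.10 ± 0.07 and 0.11 ± 0.07 (limma adjusted p = 0.23 and 0.20) and did not pass; with libraries set to the same 99th percentile they did (0.25 and 0.26, adjusted p = 0.00081 and 0.0060). That scaling took the median of all genes from 0.03 to 0.16, and in the comparison of large bowel below to 0.21.

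Short-chain and fibril-associated collagens were also higher in stomach. Col8a1, which builds hexagonal networks beneath endothelium, had 13.03 and 9.48 FPKM in wild-type and percc1-/- stomach at P1 and 12.3 and 11.4 at P5, against 1.20 to 6.37 in small intestine (1.73 ± 0.22, limma adjusted p = 1.1e-05). Col8a2 differed by 1.84 ± 0.25. Col19a1, a collagen that mice need for the muscle of the lower oesophagus, had 4.37, 4.40, 6.86 and 3.23 FPKM in stomach (wild type and percc1-/- at P1, then at P5) and at most 0.381 in small intestine (2.31 ± 0.27, limma adjusted p = 4.6e-06). Neither gene overlapped between the organs. Col14a1, Col16a1 and Col9a2 were higher by 0.92, 0.73 and 1.01, and the first 2 overlapped with small intestine; Col12a1 did not pass (0.46 ± 0.21, limma adjusted p = 0.089), but passed without percc1-/- bottom intestine at P5 (0.62) and without percc1-/- stomach at P5 (0.61). Markers of skeletal muscle, which the oesophagus of mice holds, moved with Col19a1: all 4 tested were called higher in stomach, by 1.17 (Ckm) to 2.75 (Myh3), and their part in the Col19a1 value was not tested.

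All fibrillar genes tested but Col24a1 were called higher in stomach. Col5a2 had 24.1, 20.9, 30.1 and 23.6 FPKM there, in the same order of libraries, against 11.5 to 18.3 in small intestine, with no overlap (0.66 ± 0.10, limma adjusted p = 6.6e-05). Col1a2 rose by 0.55, Col5a1 by 0.45, Col3a1 by 0.36 and Col1a1 by 0.36. Col1a1 lost its call on deposited FPKM (adjusted p = 0.050, not under the threshold). Col5a3 (0.86 ± 0.32, limma adjusted p = 0.041) lost its call with no filter (adjusted p = 0.055) and on leaving out any 1 of 8 libraries (0.73 to 0.88, adjusted p = 0.051 to 0.12). Those were bottom intestine of both genotypes at P1 and of wild type at P5, top intestine of percc1-/- mice at P1 and of wild type at P5, and all stomach libraries but that of percc1-/- mice at P1. Col11a1, a minor chain of cartilage-type fibrils, had 2.33 to 5.81 FPKM against 0.325 to 1.52 (1.52 ± 0.22).

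Members of type VI collagen went both ways. Col6a1, Col6a2 and Col6a3 were higher in stomach by 0.24, 0.18 and 0.49. On deposited FPKM the first 2 did not pass (adjusted p = 0.13 and 0.26), nor without wild-type stomach at P5 (0.18 and 0.13, adjusted p = 0.058 and 0.17). Col6a2 did not pass on leaving out any 1 of 6 other libraries either, wild-type and percc1-/- bottom intestine at P1, wild-type top intestine at P1 and P5 and both stomachs at P1 (adjusted p = 0.050 to 0.065), nor in wild type alone (0.23, adjusted p = 0.054). Col6a6 was called higher (0.63 ± 0.24, limma adjusted p = 0.042) but lost the call on leaving out any 1 of 10 libraries, every stomach library among them (0.56 to 0.69). Col6a4 was lower: it had 13.6, 6.80, 12.95 and 11.6 FPKM in stomach (same order) and 18.3 to 24.5 in small intestine, with no overlap (-0.87 ± 0.12, limma adjusted p = 2.4e-05). The ratio of Col6a4 to Col6a3 was 0.297 to 0.522 in stomach and 0.821 to 1.51 in small intestine. Col6a5 had 6.57 to 8.498 against 4.81 to 20.4 and did not pass (-0.62 ± 0.30, limma adjusted p = 0.11); it passed without percc1-/- bottom intestine at P5 (-0.78, adjusted p = 0.023) and in wild-type libraries alone (-1.03, adjusted p = 0.032). Col13a1, a transmembrane collagen of cell-matrix junctions, was the other member lower in stomach, with 2.61 to 4.61 against 3.32 to 10.7 FPKM (-0.95 ± 0.23, limma adjusted p = 0.0034), and the groups overlapped. In wild-type libraries alone the difference was -1.01 (adjusted p = 0.065).

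**Figure D3:**
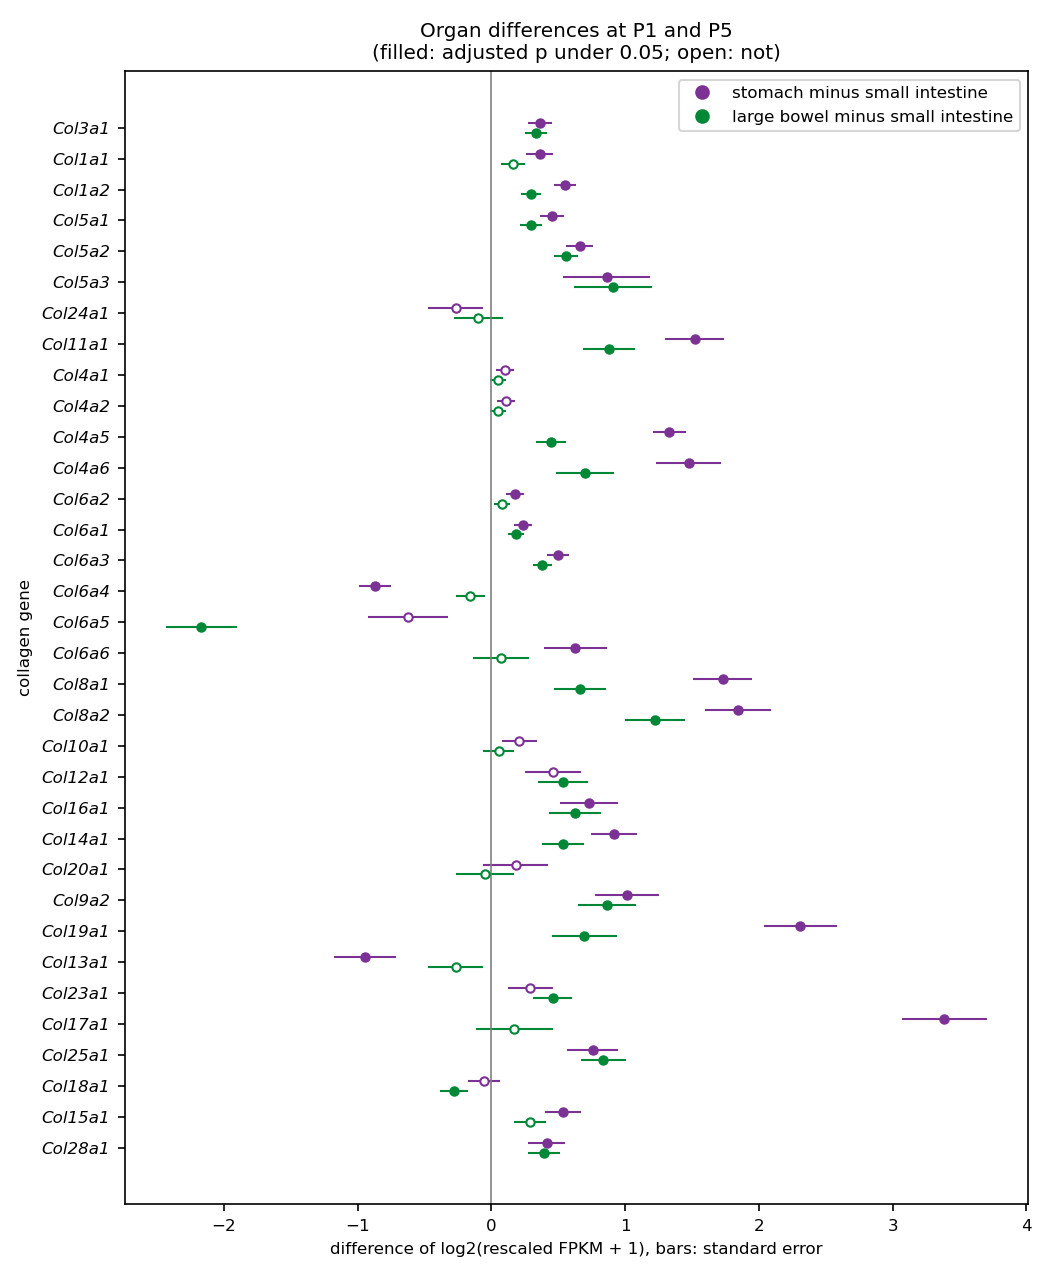
For each of 34 tested members, the point is the difference of log2(rescaled FPKM + 1) between stomach (purple) or large bowel (green) and small intestine at P1 and P5, the bar its standard error, and a filled point an adjusted p under 0.05. Col17a1 lies farthest right (3.39) for stomach, Col6a5 farthest left (-2.17) for large bowel.

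Large bowel was compared with the same 8 small intestine libraries in the same fit, so the comparisons share them. Of 34 members, 20 were higher in large bowel, against 20.2 percent of genes, and 2 were lower, against 17.8 percent. The median difference was 0.31 over the members and 0.03 over all genes. The largest was a fall: Col6a5 had 0.774 to 3.74 FPKM (median 1.63) in 6 large bowel libraries and 4.81 to 20.4 (median 13.3) in small intestine, with no overlap (-2.17 ± 0.27, limma adjusted p = 2.0e-05). Its neighbour Col6a4 had 16.8 to 22.4 in large bowel and did not pass (-0.16 ± 0.11, limma adjusted p = 0.27), though it did in wild-type libraries alone (-0.24, adjusted p = 0.042). Col5a2 had 19.3 to 27.6 (median 22.9) against 11.5 to 18.3 (0.56 ± 0.09, limma adjusted p = 0.00017), the other gene whose groups did not overlap. Col8a2 (1.22), Col5a3 (0.91), Col11a1 (0.88), Col9a2 (0.87) and Col25a1 (0.84), a neuronal transmembrane collagen, had the other largest rises. Without wild-type colon with rectum at P1 the Col5a3 difference was 0.57 and did not pass (adjusted p = 0.081), and Col25a1 did not pass with unnamed records added (1.12, adjusted p = 0.061). Col17a1, in contrast to its level in stomach, did not pass (0.17 ± 0.29). Col18a1 was called lower (-0.28 ± 0.11, limma adjusted p = 0.047) but lost the call in 20 of 27 other settings.

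Set against each other in that fit, stomach and large bowel differed in 6 members, each without overlap. How many of all genes did not overlap between these organs was not computed. The 5 higher in stomach, against 8.56 percent of genes, were Col17a1 (3.22 ± 0.34), Col19a1 (1.62 ± 0.29), Col6a5 (1.55 ± 0.32), Col8a1 (1.07 ± 0.23) and Col4a5 (0.89 ± 0.13). The 1 lower, against 6.86 percent, was Col6a4 (-0.71 ± 0.13). All 6 calls held in each of 27 other settings. For Col6a5 the order of the organs was thus small intestine (median 13.3 FPKM), stomach (7.75) and large bowel (1.63), where only the first step did not pass. For Col6a4 it was small intestine (21.0), large bowel (18.3) and stomach (12.3), where again only the first step did not pass. Within small intestine, its top and bottom parts at P1 and P5 differed in none of 28 tested members by limma, against 0.00782 percent of genes; 1 of them had an unadjusted p under 0.05, against 6.71 percent of genes.

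**Figure D4:**
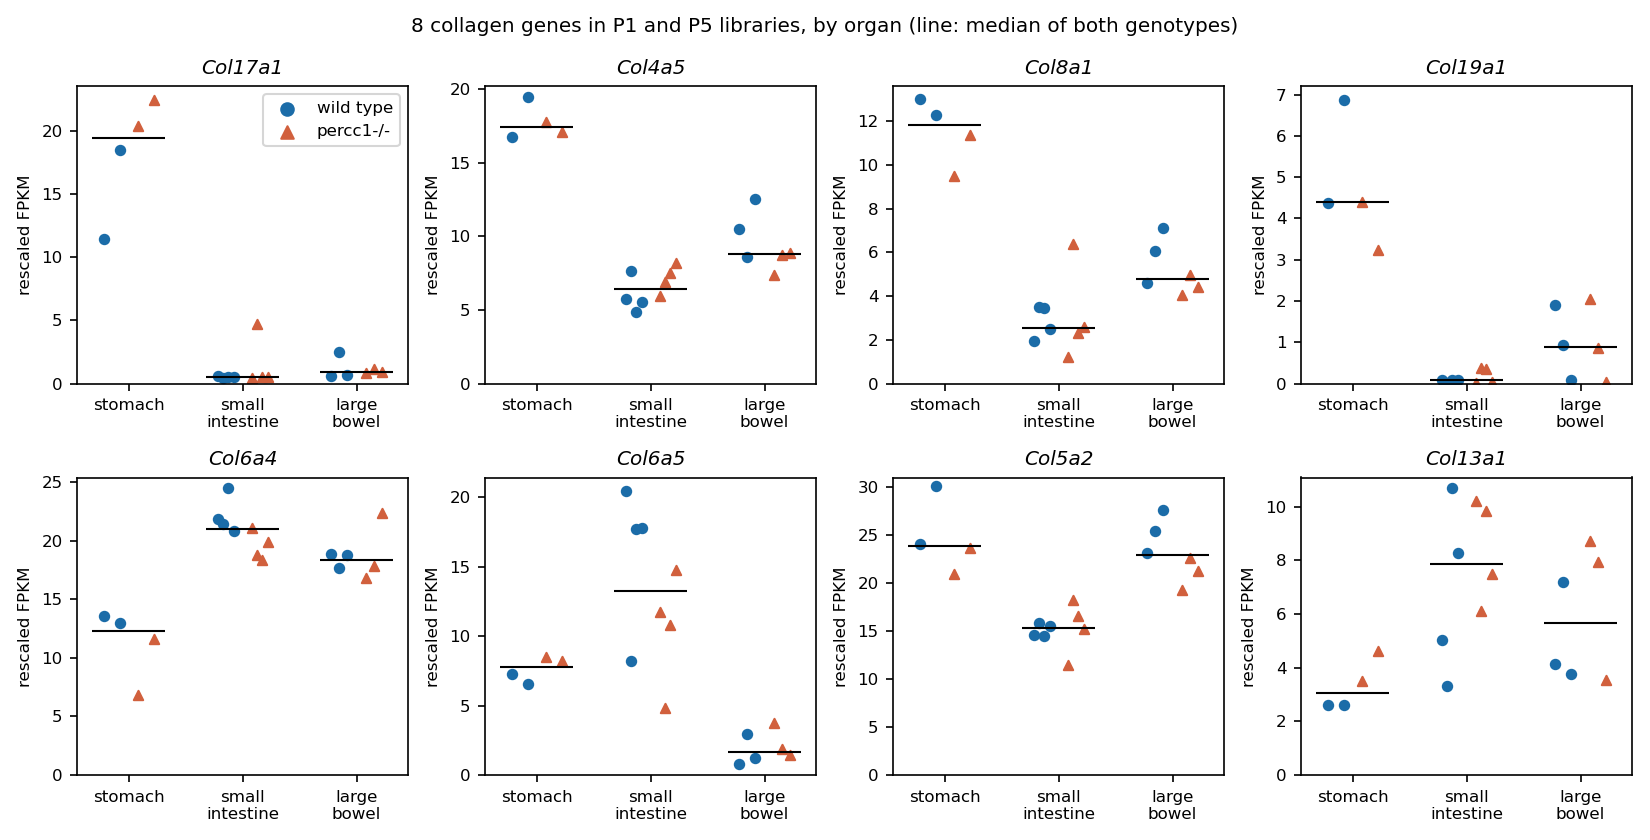
Each panel shows the rescaled FPKM of a collagen gene in the P1 and P5 libraries of 3 organs, circles for wild type, triangles for percc1-/-, and a line at the median. Col17a1, Col4a5, Col8a1 and Col19a1 are highest in stomach, Col6a4 is lowest there and Col6a5 is lowest in large bowel.

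Markers of collagen-making cells differed between the organs in the same libraries. The summed level of 6 fibroblast markers was 73.9 to 112 in stomach, 75.0 to 96.4 in large bowel and 51.0 to 79.0 in small intestine, and 3 of 6 were called higher in each of the first 2. The sum of 6 smooth muscle markers was 277 to 338, 248 to 346 and 161 to 256, with 6 of 6 called higher in both. In bulk tissue, more cells of a type and more RNA per cell cannot be told apart, and the part of these cells in the collagen differences was not tested. The 4 mesothelium markers summed to 16.8 to 24.8 in stomach, 3.28 to 45.6 in large bowel and 3.52 to 10.1 in small intestine. The highest was wild-type colon with rectum at P1.

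Records without a gene symbol inside the span of a collagen gene also differed between organs. Inside Col3a1 such records were present in 4 of 4 stomach libraries (82.9 to 175 FPKM summed), 6 of 6 large bowel libraries (101 to 235) and 4 of 8 small intestine libraries (0 to 13.8). Inside Col4a5 they had 18.2 to 116 in stomach and 0 to 5.35 in small intestine. When such records were added to the named one, the difference between stomach and small intestine was 2.06 for Col3a1, 1.97 for Col5a2, 1.75 for Col1a2 and 3.16 for Col4a5, between 2.37 and 5.73 times the value from named records alone. The files give no strand for these records, and summing FPKM over records of unlike length weights short ones heavily, so these sums are not transcript levels.

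Between P1 and P5, in 12 libraries of both genotypes from top intestine, bottom intestine and stomach, no member passed by limma, against 0.0 percent of genes, but 9 of 34 had an unadjusted p under 0.05, against 10.2 percent of genes. All 9 were higher at P5. Whatever the p, 25 of the 34 members were higher and 9 lower at P5, while 47.6 percent of all genes were lower. Col18a1 had 11.4 to 14.55 FPKM in the P1 libraries and 15.5 to 19.8 in those of P5, with no overlap (0.44 ± 0.08, limma adjusted p = 0.20). Col1a1, Col5a1, Col1a2, Col15a1, Col6a3 and Col3a1 differed by 0.35, 0.35, 0.32, 0.29, 0.29 and 0.20, with overlap.

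In small intestine, libraries of P10 to P20 (n = 6) were compared with those of P1 and P5 (n = 8), with the part of the intestine and genotype as covariates. Of 27 tested members, 1 was higher with age, against 3.47 percent of genes, and 1 was lower, against 2.47 percent. Col5a3, a minor type V chain, had 0.592 to 6.67 FPKM (median 2.02) at the younger ages and 3.70 to 7.50 (median 5.48) at the older (1.10 ± 0.26, limma adjusted p = 0.031). Col6a4 fell from 18.3 to 24.5 (median 21.0) to 10.4 to 19.96 (median 14.8) (-0.51 ± 0.10, limma adjusted p = 0.011). Both overlapped. In the bottom part alone neither passed (Col5a3 0.97, adjusted p = 0.35, and Col6a4 -0.31, adjusted p = 0.27), nor did Col6a4 in wild type alone (-0.45, adjusted p = 0.17). The Col5a3 call was lost on leaving out any 1 of 9 libraries, its difference then being at least 0.96. These were the top intestine of wild type at P1 and P5 and of both genotypes at P15, and the bottom intestine of both genotypes at P1 and of wild type at P5, P10 and P20. Col3a1, Col1a1 and Col1a2 differed by 0.30, 0.38 and 0.32 (limma adjusted p = 0.060, 0.11 and 0.14).

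In stomach, age cannot be told apart from the part taken, since P1 and P5 libraries hold the whole organ and P10 to P20 libraries its bottom part. Of 39 tested members, 5 were higher in the older bottom part, against 8.07 percent of genes, and 5 were lower, against 9.07 percent. Col17a1 had 11.5 to 22.5 FPKM in the 4 whole stomachs and 2.81 to 5.72 in the 6 bottom parts (-1.80 ± 0.20, limma adjusted p = 0.00087). The squamous markers moved with it, from 79.2 to 96.3 summed to 15.04 to 45.1, and all 3 were called lower, as were 4 of 4 mesothelium and 3 of 6 smooth muscle markers. Their part in the collagen values was not tested. Col8a1 (-0.87), Col11a1 (-0.98), Col19a1 (-1.06) and Col8a2 (-0.75) were the others lower, and Col4a3 (1.13), Col11a2 (0.96), Col9a3 (0.84), Col5a3 (0.62) and Col15a1 (0.39) were higher. Col4a3 had 0.473 to 0.596 FPKM in the whole stomachs and 1.41 to 4.83 in the bottom parts, the highest being both P20 libraries (3.74 and 4.83). Col15a1, a collagen of vessel and muscle basement membranes, had 11.9 to 15.5 and 17.5 to 20.6. Neither overlapped, and among the 10 called members only Col19a1 and Col8a2 did. The calls rest on the same values, and the share of all genes without overlap was not computed. All 10 calls ended in the bottom part alone (P20 minus P10), which leaves 2 libraries a stage. There the differences of Col4a3, Col19a1 and Col8a2 were 1.02, -0.80 and -0.65, those of Col5a3, Col11a2 and Col11a1 were 0.40, 0.39 and -0.36, and those of Col17a1, Col8a1, Col9a3 and Col15a1 were -0.20, -0.19, 0.04 and 0.03. Col15a1 did not pass with unnamed records added (0.15, adjusted p = 0.64) or at the same 99th percentile (0.30, adjusted p = 0.053). In wild type alone only Col17a1 and Col19a1 of the 10 kept their calls. Col15a1 (0.40, limma adjusted p = 0.11) did not pass there. Nor did Col4a3, Col8a1, Col11a2, Col11a1, Col5a3, Col8a2 and Col9a3 (limma adjusted p = 0.072 to 0.17). Without wild-type whole stomach at P1, Col4a3 and Col11a2 did not pass (1.099 and 0.89, adjusted p = 0.055 and 0.056). Col19a1, Col8a2 and Col5a3 lost their calls on leaving out any 1 of 7, 7 and 5 of the 10 libraries (adjusted p up to 0.071, 0.087 and 0.088).

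In the whole gut at E14.5, 1 library of each genotype, most collagens were not outside the P1 range on the same side in both libraries. Of the 34 members tested over all pairs, 4 were above all 8 P1 libraries in both, against 13.1 percent of 13084 genes, and 3 were below all of them, against 12.985 percent; this is a description of 2 libraries, with no test. Col11a1 had 7.98 FPKM in wild type and 7.58 in percc1-/-, against 0.496 to 5.81 at P1. Col6a6 had 5.62 and 5.28 against 0.236 to 2.45, and Col5a2 had 26.7 and 40.7 against 11.5 to 25.4. Col23a1, a transmembrane collagen, was the fourth, at 7.76 and 8.05 against 3.17 to 7.20. Col4a1 (23.1 and 26.3 against 29.0 to 34.3), Col4a2 (15.6 and 16.9 against 20.5 to 27.2) and Col6a5 (1.02 and 0.686 against 1.85 to 20.4) were the 3 below.

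The cartilage collagens Col2a1 and Col9a1 were highest in these embryonic libraries and differed between them. Col2a1 had 0.446 FPKM in wild-type and 4.18 in percc1-/- whole gut, and at most 0.0461 in any of the 30 postnatal libraries. Col9a1, which coats type II fibrils, had 0.794 and 3.06, against at most 0.601 after birth. Between the embryonic libraries, markers of some other organs differed the same way. Cartilage markers summed to 2.64 in wild-type and 8.45 in percc1-/- whole gut. Lung markers summed to 0.511 and 34.9, and heart markers to 7.03 and 51.9. Liver and pancreas markers went the other way, from 136.3 in wild type to 118.5 in percc1-/- and from 99.1 to 81.3. The part of adjoining tissue in these values was not tested. After birth the cartilage sum did not follow these collagens. It was 6.9975 in wild-type colon at P5 and 6.58 in wild-type colon with rectum at P1, above wild-type whole gut. In those libraries Col2a1 had 0 and 0.0226 FPKM and Col9a1 had 0.116 and 0.601, below wild-type whole gut. Col22a1, known from junctions of muscle and tendon, had 4.19 and 2.21 FPKM, and the skeletal muscle markers summed to 91.2 and 106.9.

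Genotype was compared over all 16 pairs with the pair as a block. No member passed by limma, against 0.887 percent of 13084 genes, and 11 of 34 had an unadjusted p under 0.05, against 13.2 percent of genes. The median difference, percc1-/- minus wild type, was -0.05 over the members and 0.00 over all genes, and 20 of 34 members were below 0, against 50.4 percent of genes. Col14a1, a fibril-associated collagen of dense connective tissue, came closest. In stomach, wild type had 21.0 and 22.2 FPKM at P1 and P5 and 16.9, 12.1 and 9.73 at P10, P15 and P20. The percc1-/- libraries of the same order had 11.2, 17.7, 13.1, 10.02 and 5.23, each lower than its partner. In large bowel the P1 pair and then the P5 pairs of colon and of rectum had 20.7, 14.8 and 16.4 in wild type and 10.9, 9.56 and 10.97 in percc1-/- mice, without overlap. In top intestine at P1, P5 and P15, wild type had 12.6, 10.1 and 16.3 and percc1-/- mice 4.82, 9.04 and 5.91, all lower. In bottom intestine at P1, P5, P10 and P20 the values were 7.65, 9.09, 13.7 and 8.27 against 8.09, 10.96, 12.8 and 8.19, the first 2 higher in percc1-/- mice. Whole gut had 19.9 and 19.8. As a difference of log2(FPKM + 1), the gap between the genotypes was widest in top intestine at P15 and P1.

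Over all pairs, 14 of 16 were lower for Col14a1 and the difference was -0.44 ± 0.11 (limma adjusted p = 0.067). It came under the threshold with unnamed records added (-0.70, adjusted p = 0.040), without the bottom intestine pair at P5 (-0.48, adjusted p = 0.048) and without the whole gut (-0.47, adjusted p = 0.047), and not without any other pair. All 16 pairs differed by markers of another organ. Without the 10 pairs in which at least 3 such markers averaged 1 FPKM or more, the difference was -0.46 (limma adjusted p = 0.53). That refit held no stomach and no whole gut. The pairs kept were colon with rectum at P1, rectum at P5, top intestine at P15 and bottom intestine at P1, P10 and P20. Their differences ran from -1.32 (top intestine at P15) to 0.07 (bottom intestine at P1). The pairs kept are not free of such markers. Within organs the Col14a1 difference was -0.51 ± 0.12 in stomach and -0.66 ± 0.11 in large bowel (limma adjusted p = 0.85 and 0.36). In small intestine, the top intestine pairs at P15 and P1 differed by -1.32 and -1.22. The other pairs of that organ lay between -0.15 (top intestine at P5) and 0.24 (bottom intestine at P5). Col28a1 was also lower in 14 of 16 pairs, with a median of 0.937 FPKM against 1.44 (-0.33 ± 0.09, limma adjusted p = 0.082), and Col6a6 in 14 of 16 (-0.30 ± 0.11, adjusted p = 0.23). Col1a2, Col1a1 and Col3a1 differed by -0.14 ± 0.05, -0.12 ± 0.06 and -0.11 ± 0.05 (limma adjusted p = 0.19, 0.36 and 0.30). Col13a1 had the largest positive value (0.24 ± 0.10, adjusted p = 0.28). The sum of fibroblast markers was lower in percc1-/- mice in 11 of 16 pairs, with a median ratio of 0.915, and that of smooth muscle markers in 8. Sums of endothelium and proliferation markers were lower in 13 and 12 of 16 pairs (median ratios 0.898 and 0.925). Their part in the collagen values was not tested.

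**Figure D5:**
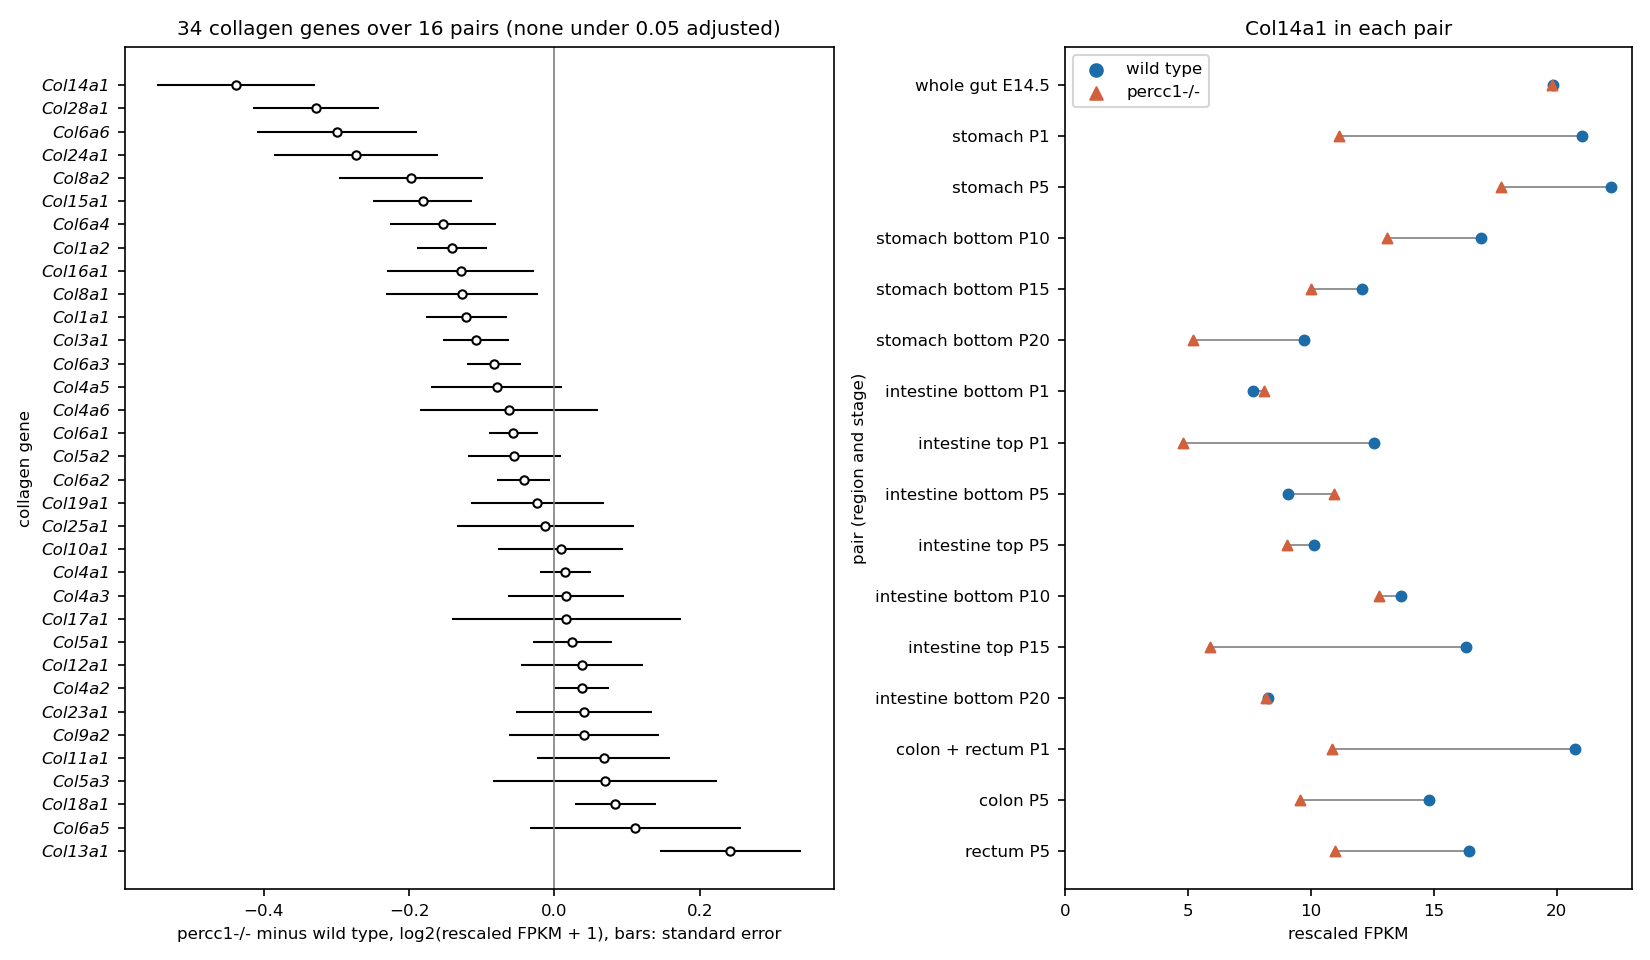
Left, the difference between percc1-/- and wild-type libraries in log2(rescaled FPKM + 1) over 16 pairs for 34 members, with standard errors; no adjusted p is under 0.05. Right, the rescaled FPKM of Col14a1 in each pair, where 14 of 16 triangles (percc1-/-) lie left of their circle (wild type).

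Within organs no member passed by limma either. Small intestine had 0 of 27 called, against 0.117 percent of genes, and 3 with an unadjusted p under 0.05, against 10.07 percent. Among these Col6a4 was lower in percc1-/- mice in 7 of 7 pairs (-0.22 ± 0.07, adjusted p = 0.29). Stomach had 0 of 39, against 0.0226 percent, and 4 unadjusted, against 4.60 percent, among them Col6a5, which was higher in 5 of 5 pairs (0.41 ± 0.10, adjusted p = 0.91). Large bowel had 0 of 35, against 0.015 percent, and 3 unadjusted, against 9.96 percent. The genotype difference itself was not called different between stomach and small intestine for any of 35 members (limma, against 0.0153 percent of genes, and 2 unadjusted against 4.69 percent). The same held between P10 to P20 and P1 with P5 for 34 members (against 0.046 percent, and 1 unadjusted against 8.14 percent).

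Genes that make, bind and break down collagen were read from lists chosen for their known roles. For enzymes and chaperones of chain folding, 11 of 15 tested genes were higher in stomach than in small intestine at P1 and P5, against 23.8 percent of all genes, and 2 were lower, against 19.8 percent, with a median of 0.68. The prolyl hydroxylases Leprel1, P4ha2 and P4ha1 differed by 1.48, 1.29 and 0.84, and the lysyl hydroxylase Plod2 by 0.84. All 5 cross-linking enzymes were higher (median 0.88), Lox by 1.47 ± 0.17 and Loxl1 by 1.248 ± 0.19, with mean levels of 18.2 against 6.18 and 11.6 against 4.41 FPKM. In large bowel, 9 of 15 folding genes and 4 of 5 cross-linking enzymes were higher than in small intestine, Lox by 1.13 ± 0.15, against 20.2 percent of all genes. Of propeptide-removing proteins 3 of 6 were higher in stomach, among them Adamts2 (0.95).

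Of collagen-degrading enzymes, the list's 6 tested genes went both ways: 4 were higher in stomach, such as cathepsin K (Ctsk, 0.92), and Mmp9 (-1.91) and Mmp13 (-1.08), the gelatinase and collagenase, were lower. Of 7 receptors, Itga10 (1.03) and Ddr2 (0.71) were among 3 higher, and Lair1, an inhibitory receptor of leukocytes, and Itga2, an integrin chain, were lower (-0.97 and -0.57). Of other interstitial matrix genes 11 of 13 were higher, led by fibromodulin (Fmod, 1.74) and elastin (Eln, 1.39), with 0 lower. Of other basement membrane genes 8 of 13 were higher, led by Lamb3 (2.40), a laminin chain that joins type XVII collagen in hemidesmosomes, and 1 was lower. Lamb3 was higher in large bowel too (2.03), where Col17a1 did not pass. The share of all genes called higher in stomach was 23.8 percent.

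With genotype, genes of the interstitial matrix and cross-linking lists were called over all pairs, 1 of 13 and 1 of 5 tested, both lower in percc1-/- mice. Lum, a small proteoglycan that binds collagen fibrils and is also 1 of the 6 fibroblast markers, had means of 12.7 FPKM in percc1-/- and 15.955 in wild-type libraries (-0.34 ± 0.07, limma adjusted p = 0.029). Loxl3, a cross-linking enzyme, had 2.27 and 3.11 (-0.31 ± 0.07, limma adjusted p = 0.040). No folding, propeptide, breakdown, inhibitor or receptor gene of the lists passed, of 15, 6, 3, 3 and 7 tested.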

How the data were processed

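The authors deposited 1 gene table per library with FPKM and its bounds. The submitters' processing notes list the mm9 build, Cufflinks 2.2.1, TopHat2 2.0.13 and SAMtools 0.1.18. For the annotation, its version was not given in the sources used here. Per the labels, libraries were stranded total RNA with ribosomal RNA removed. FPKM of single-symbol records were rescaled by the median ratio over 10023 genes above 1 FPKM in all libraries. limma 3.58.1 (R 4.3.3, trended and robust prior) was fitted to log2(rescaled FPKM + 1) over genes whose mean reached 1 FPKM, two-sided, with Benjamini-Hochberg adjustment over all genes and calls under 0.05. Genotype fits have the pair of region and stage, taken from the labels, as a block; other fits have stage, part or genotype as covariates. The members and lists were chosen with earlier results of these data known. Every member is accounted for by its level, but not every called member is named in each comparison. Of companion lists, up to 4 called genes per comparison by size may be named. The fits were tested on simulated data, with 200 genes changed by 1.5 log2 units. Of the 200, 99 percent were called among 13084 genes over all 16 pairs, and 61 percent among 13369 in large bowel. Smaller changes, such as the genotype differences over all pairs given above, were not simulated. Gene positions and exons are from GENCODE vM1 models on mm9. Col7a1 was not tested. One gene of the companion lists is not reported here.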

Additional observations from a re-analysis of the deposited data

How the results depend on the processing

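Each comparison was refitted under 13 to 27 settings, which changed the pseudocount, the filter, the scaling, the prior, the records summed, the block or the libraries; no called difference changed sign. In the comparison of genotype over all pairs, 0 members were called, and 1 with unnamed records added and in 2 of 16 omissions of a pair (0 to 1). The fits with no replicate block called 0 in every genotype comparison, as did those with the block, so pairing changed no call. For stage in small intestine, the 2 calls became 4 with no filter, 4 with unnamed records added, 1 in wild type only and 0 in the bottom part only, and lay between 1 and 5 over omissions, the 5 without percc1-/- bottom intestine at P5. For stage in stomach, the 10 calls became 18 with unnamed records added, 3 in wild type only and 0 within the bottom part. Those 3 were Col17a1, Col19a1 and Col6a4, the last not among the 10. Over omissions the calls lay between 5 and 11, the 5 without wild-type stomach at P1. Over omissions of a library, stomach minus small intestine had 21 to 26 calls (25 as reported), large bowel minus small intestine 15 to 22 (22) and stomach minus large bowel 6 to 8 (6). Calls held in all settings for 16 of 25, 13 of 22 and 6 of 6 members. The other comparisons called 0 throughout. Leaving out each pair with markers of another organ, as first planned, was not run, since all 16 pairs met that rule; a version chosen after seeing the data, which needs at least 3 such markers, left out 10 pairs and called 0. The cause of these shifts was not tested. The alternatives with the 99th percentile, without 3 libraries holding gastric or squamous markers, and by age were also chosen after seeing the data. Tables give no counts, so limits of depth are known only through the FPKM bounds.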
